A study of Mus musculus with 4 samples.

Results

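The genes described here are 52 genes of the TGF-beta and BMP signalling pathways, measured by bulk RNA-seq in fibroblasts that were being reprogrammed toward hepatocytes with the Prox1 gene targeted or left intact. They were chosen by name, as ligands, ligand-binding proteins, receptors, antagonists, Smads and targets, with the further condition that normalized counts averaged 10 or more over the 4 libraries. All 52 met it, and they are 52 of the 15809 genes that did so among 55397 genes listed. Primary mouse embryonic fibroblasts (MEFs) were taken at E13.5 from C57BL/6J embryos with conditional Prox1 alleles (Prox1 fl/fl), and every culture received lentivirus carrying the 4in1 reprogramming factors and was kept in hepatocyte medium until day 14. The 2 libraries labelled Prox1 KO also received cre-GFP, a lentivirus encoding Cre recombinase with a fluorescent label, and the 2 control libraries, labelled WT Prox1, received dcre-GFP, its non-functional form. Both groups carry the same floxed genotype, no promoter restricted to a cell type is named for either virus, and no step that selected transduced cells is given in the labels, so each library holds RNA of every cell in the culture. In such bulk RNA, fewer cells of a type and less RNA per cell cannot be told apart.

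TGF-beta, activin and BMP ligands are secreted as precursors, and TGF-beta is stored in the extracellular matrix in a latent form held by LTBP proteins. Active ligands bring type II and type I receptor kinases together, which phosphorylate Smad2 and Smad3 (TGF-beta and activin) or Smad1, Smad5 and Smad9 (BMP), and these enter the nucleus with Smad4 and switch target genes such as the Id genes on. Smad6 and Smad7 are inhibitory Smads that dampen the signal, and extracellular antagonists such as gremlin, noggin, chordin and follistatin capture ligands before they reach a receptor. The pathway drives matrix production and contractile gene expression in fibroblasts and limits hepatocyte proliferation in the liver.

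Each library held between 42469031 and 48524008 reads on genes. The values given below are normalized counts, the read counts of a gene divided by the size factor of its library, and a fold change is the log2 of (normalized counts + 1) in libraries labelled Prox1 KO minus that in the controls. A gene is called higher or lower when its Benjamini-Hochberg adjusted p-value over all 15809 genes, from limma with the replicate number as a block, is under 0.05. The targeted gene itself, Prox1, was listed at 72.7 and 61.6 normalized counts in replicates 1 and 2 labelled Prox1 KO and at 60.6 and 25.5 in the controls, from 24 to 70 reads. Its fold change was 0.75 ± 0.27 (log2, SE), with an adjusted p of 0.0936 in limma. Prox1 was therefore not lower where the label says Prox1 KO. Cre removes exon 2 of the floxed gene, and reads from the rest of the transcript do not check that deletion. The groups are named here by their labels throughout.

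Of the 52 genes, 15 were called (11 higher and 4 lower in those labelled Prox1 KO). This was 28.8% of the members, beside 11.4% of all genes tested, 5.09% of them called higher and 6.29% lower. Most members are strongly expressed, and called genes are commoner among such genes: 16.0% of genes that averaged 1000 normalized counts or more were called, beside 12 of the 37 members at that level. The members called higher were the ligands Tgfb2, Tgfb3, Inhba and Inhbb, the matrix protein Ltbp2, the receptors Eng and Bmpr2, the antagonists Fstl3 and Grem1, and the Smads Smad7 and Smad9. Those called lower were Bmp4, Ltbp4, Tgfbr1 and Tgfbi. The changes were small, between 0.14 and 0.65 on the log2 scale for the rises and between -0.64 and -0.23 for the falls, and the median over all 52 was 0.029, beside -0.0022 over all genes tested. The 2 replicate pairs moved in the same direction for 37 of the 52 members (71.2%) and for 65.8% of all genes tested. The values of the 2 groups did not overlap in 21 of the 52, beside 44.4% of all genes tested. Among the 15 called members the pairs moved together in all 15, and the groups did not overlap in 13. Calls were made on the difference within pairs, so these 2 counts follow in part from the calling and are no separate support.

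**Figure D1:**
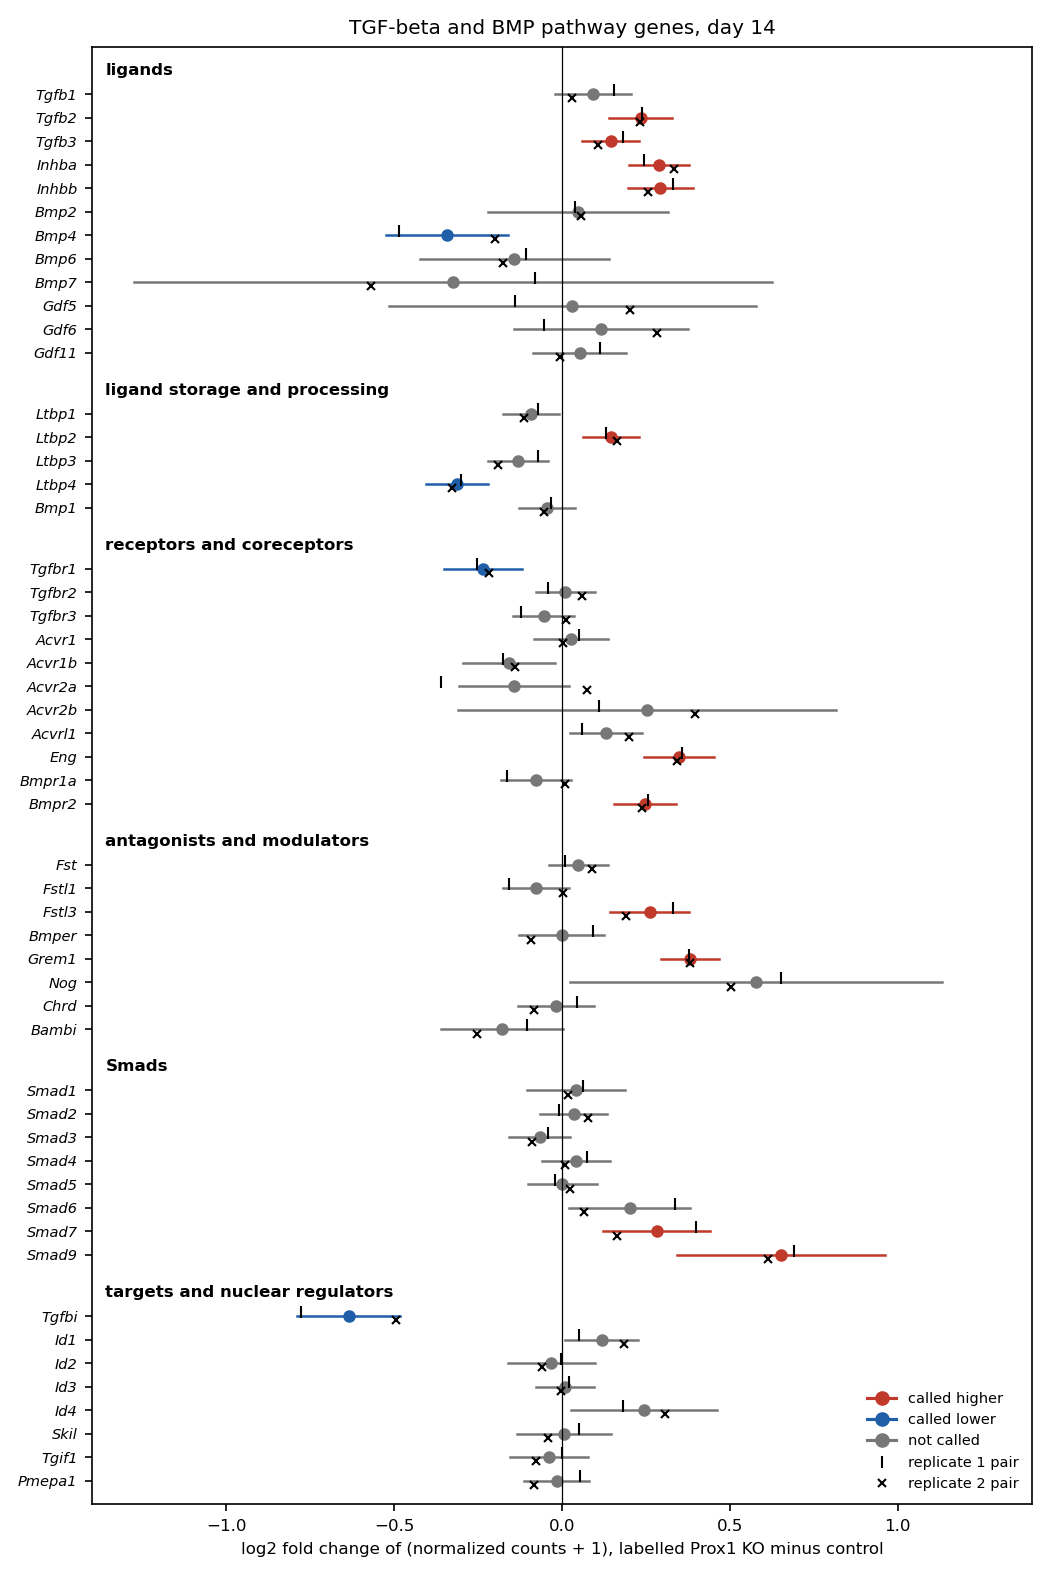
The horizontal axis is the log2 fold change of (normalized counts + 1), libraries labelled Prox1 KO minus controls, for each of the 52 genes grouped by role. Circles are the fitted values over both pairs, lines their 95% confidence intervals from limma, vertical ticks the replicate 1 pair and crosses the replicate 2 pair. Red genes were called higher (11) and blue genes lower (4); Smad9, at 0.65, lies farthest to the right among the called genes and Tgfbi, at -0.64, farthest to the left.

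These calls rest on comparing libraries of the same replicate number. With 2 libraries a group, exact permutation of the labels cannot reach a two-sided p under 0.333. Without the replicate block limma called 0 of the 52, with 13 at an unadjusted p under 0.05, and DESeq2 without the block also called 0, with 11. With the block, edgeR called 15 members and DESeq2 called 7, beside 3.59% of all genes to which DESeq2 gave an adjusted p. Over all 15809 genes tested, limma without the block gave 1783 at an unadjusted p under 0.05. For edgeR, and for DESeq2 without the block at an unadjusted p, no share over all genes is given here. Those counts are not compared with all genes. The 7 members called by DESeq2 were Inhba, Inhbb, Ltbp4, Eng, Bmpr2, Grem1 and Tgfbi, which were also called by limma and edgeR.

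The promoters of 4 called members are shown because they bound the range of the result: Grem1 had the smallest adjusted p among the rises, Smad9 the largest rise, Eng the largest rise of a receptor and Tgfbi the largest fall. Each is the run of 250 bases before the RefSeq start of the gene, 5′ to 3′ on the coding strand, in build GRCm38.p6, and Grem1 lies on the minus strand at chr2:113758649-113758898, Smad9 on the plus strand at chr3:54755332-54755581, Eng on the plus strand at chr2:32646345-32646594 and Tgfbi on the plus strand at chr13:56609336-56609585. Capitals mark CAGAC or its complement GTCTG, the letters that Smad3 and Smad4 recognise, and GGCGCC, a GC-rich palindrome also recognised by Smads; the motifs share no bases here.
Grem1: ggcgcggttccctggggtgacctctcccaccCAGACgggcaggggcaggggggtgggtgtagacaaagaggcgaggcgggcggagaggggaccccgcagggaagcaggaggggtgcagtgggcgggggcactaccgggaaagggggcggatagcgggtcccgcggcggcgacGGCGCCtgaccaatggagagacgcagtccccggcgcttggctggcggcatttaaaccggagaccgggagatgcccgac
Smad9: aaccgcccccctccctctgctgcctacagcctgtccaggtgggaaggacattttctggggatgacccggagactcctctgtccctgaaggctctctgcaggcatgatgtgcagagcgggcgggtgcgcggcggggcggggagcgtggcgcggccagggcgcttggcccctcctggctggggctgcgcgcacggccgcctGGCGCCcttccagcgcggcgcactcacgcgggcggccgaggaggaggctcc
Eng: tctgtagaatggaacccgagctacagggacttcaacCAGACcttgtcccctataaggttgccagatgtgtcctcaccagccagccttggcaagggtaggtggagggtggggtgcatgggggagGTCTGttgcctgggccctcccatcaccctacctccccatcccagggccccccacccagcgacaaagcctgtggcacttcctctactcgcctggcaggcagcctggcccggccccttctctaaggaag
Tgfbi: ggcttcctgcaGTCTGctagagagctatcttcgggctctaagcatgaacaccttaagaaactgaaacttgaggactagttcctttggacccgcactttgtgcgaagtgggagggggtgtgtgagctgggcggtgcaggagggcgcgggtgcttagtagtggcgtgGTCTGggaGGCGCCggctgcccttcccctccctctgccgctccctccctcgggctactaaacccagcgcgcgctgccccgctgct

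CAGAC on either strand occurred once in the Grem1 window, in 2 places in those of Eng and Tgfbi and nowhere in that of Smad9. GGCGCC occurred once each in the Grem1, Smad9 and Tgfbi windows and not in that of Eng. RefSeq windows were at hand for 35 of the 52 members (45 windows, since some genes have several starts), and CAGAC was in 42.2% of these and in 42.2% of all 32851 windows. GGCGCC was in 26.7% of the members' windows and in 9.59% of all windows. By window, CAGAC was in 5 of the 9 of members called higher, 2 of the 7 of those called lower and 12 of the 29 of those not called. GGCGCC was in 3 of 9, 4 of 7 and 5 of 29. The 7 windows belong to only 4 genes and the 29 to 22, so windows are not separate genes. A match is a run of letters and shows no binding.

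The members spanned a wide range of levels. Per kilobase of exon, which allows genes to be compared, the mean over the 4 libraries ran from 3.08 normalized counts per kilobase for Bmp7 to 12129.8 for Fstl1, a secreted glycoprotein abundant in mesenchymal cells, and the median member was at 369. Fstl1 stood above all others in every library. Next came Id3 (3669), Ltbp3 (2899), Tgfb3 (2858), Tgfbr2 (2668) and Id1 (2172 normalized counts per kilobase), each of which overlapped its neighbour in the order over the 4 libraries. Of the 51 neighbouring pairs in the order, 40 overlapped in this way, so that only broad tiers can be read from it. The genes for ligand storage and processing had the highest median by role, 1645 normalized counts per kilobase. The lowest medians were those of the Smads, 267, and the ligands, 271, which hardly differed.

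**Figure D2:**
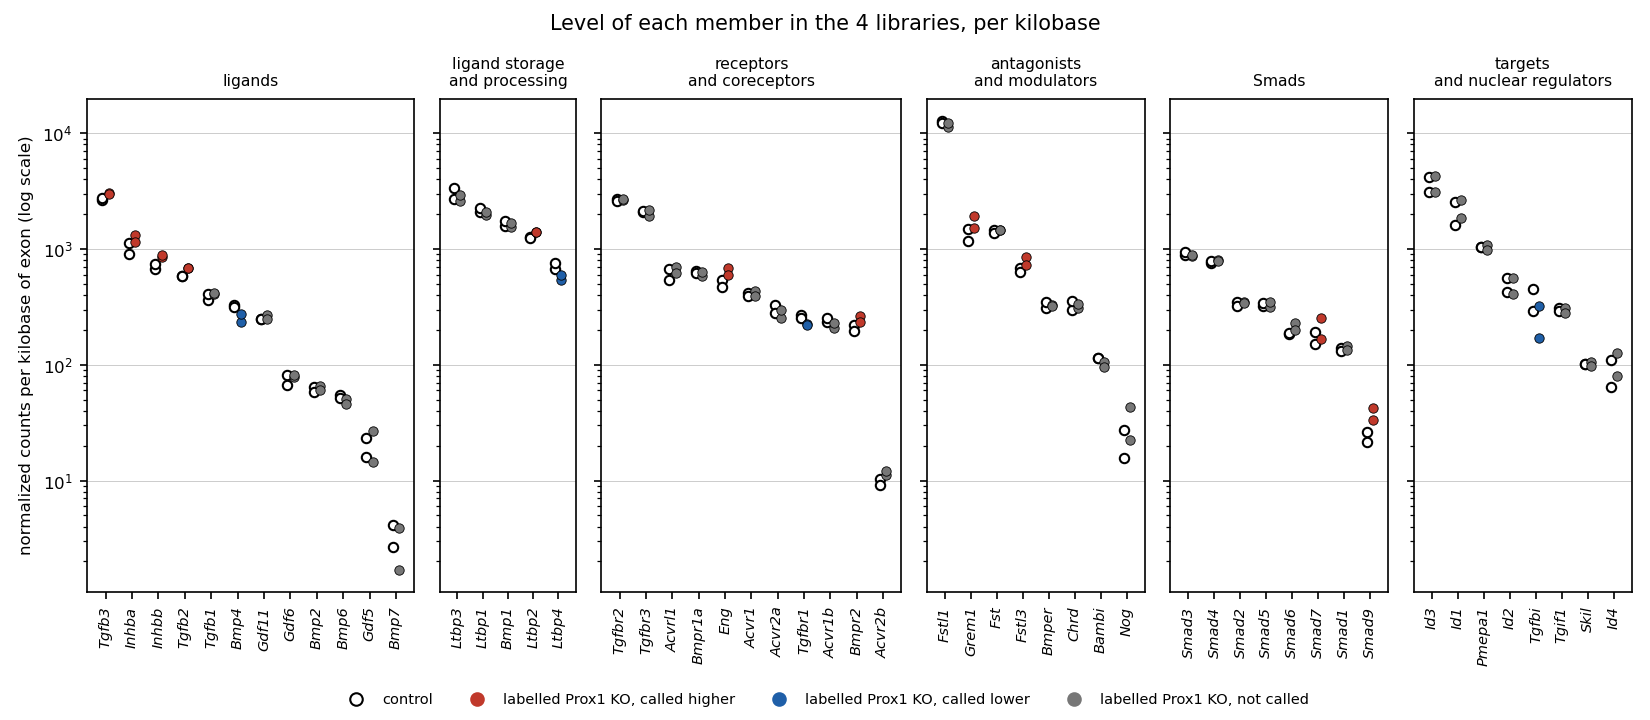
The vertical axis is the normalized counts per kilobase of exon on a log scale, and each point is 1 library, open for the controls and filled for libraries labelled Prox1 KO. Genes are ordered within each role by their mean, and fill colour marks calls by limma (red higher, blue lower, grey not called); differences between genes, from 3.08 to 12129.8, are far larger than those between groups.

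Among the ligands, 4 of 12 were called higher and 1 lower. Tgfb2 encodes a TGF-beta isoform, and its groups did not overlap. It was at 3975 and 3967 normalized counts in libraries labelled Prox1 KO (replicates 1 and 2) and 3372 and 3376 in the controls. Its fold change was 0.24 ± 0.044 (log2, SE; limma adjusted p = 0.00254), a rise of 17.7%. Tgfb3, the most abundant ligand per kilobase, was at 10263 and 10045 against 9048 and 9321, also without overlap, a fold change of 0.14 (adjusted p = 0.0301). Tgfb1, at 2048 and 2093 against 1839 and 2050.2, was not called: its fold change of 0.093 had a 95% interval of -0.021 to 0.21 (adjusted p = 0.318), which includes the size of the Tgfb3 change. By level, the 3 isoforms stood in the order Tgfb3 at 2858, Tgfb2 at 634 and Tgfb1 at 398 normalized counts per kilobase.

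Inhba and Inhbb encode the subunits of the activins, ligands that signal through Smad2 and Smad3. Inhba was at 8459 and 7305 normalized counts in libraries labelled Prox1 KO and at 7147 and 5799 in the controls (mean 7882 ± 816 against 6473 ± 953, SD, n = 2). The lowest Inhba value of the first group lay just above the highest of the second, and replicate 1 was higher than replicate 2 in both. Within pairs the difference was 0.24 and 0.33 on the log2 scale, and the fold change was 0.29 ± 0.042 (SE; limma adjusted p = 0.000347). Inhbb was at 3621 and 3745 against 2879.8 and 3135, with a fold change of 0.29 ± 0.046 (SE; adjusted p = 0.000641). Both activin subunits rose by about the same amount, 22.1% and 22.5%.

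Bmp4, a BMP ligand expressed by mesenchyme, was the only one of the 12 member ligands called lower, at 523 and 619 normalized counts in libraries labelled Prox1 KO and 733 and 710.0 in the controls. The groups did not overlap, and the fold change was -0.34 ± 0.086 (log2, SE; limma adjusted p = 0.0167), but the pairs differed in size, -0.49 and -0.20. The remaining BMP and GDF ligands among the 52 were not called. Bmp2 was at 234 and 216 against 228 and 208, Bmp6 at 198 and 178 against 214 and 201, and Gdf11, which signals through Smad2 and Smad3, at 1099 and 1002 against 1017 and 1007 normalized counts. Gdf6, a ligand of joint formation, was at 279.5 and 286 against 290.1 and 235, and the fold changes of these 4 lay between -0.14 and 0.11. Bmp7 and Gdf5 had few counts, with means over the 4 libraries of 12.4 and 46.7, and their 95% intervals, -1.27 to 0.62 and -0.52 to 0.58 on the log2 scale, include changes as large as that of Grem1.

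Of the 5 genes for ligand storage and processing, 1 was called higher and 1 lower. Ltbp4, which binds latent TGF-beta to elastic fibres, was at 3514 and 3890.4 normalized counts in libraries labelled Prox1 KO and at 4326 and 4881 in the controls, with every library of the first group below every library of the second. Its fold change was -0.31 ± 0.043 (log2, SE; limma adjusted p = 0.000238), nearly the same in both pairs (-0.30 and -0.33). Ltbp2, a microfibril protein of the same family that does not carry latent TGF-beta, went the other way, at 11394 and 11417 against 10406 and 10196, with a fold change of 0.15 (adjusted p = 0.0238). These 2 genes did not overlap between groups. Ltbp1 (21197 and 22416 against 22263 and 24231; fold change -0.092, adjusted p = 0.164) and Ltbp3 (23486 and 26625 against 24674 and 30384; -0.13, adjusted p = 0.0578), which also carry latent TGF-beta, were lower in both pairs without being called. With a correction for GC content and length, both were called lower and Ltbp2 was no longer called (adjusted p = 0.0144 for Ltbp1, 0.00572 for Ltbp3 and 0.102 for Ltbp2). Bmp1, a protease that cleaves procollagen and chordin, differed by -0.044 (adjusted p = 0.54).

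Among the receptors and coreceptors, 2 of 11 were called higher and 1 lower. Eng encodes endoglin, a coreceptor for ligands of both branches that is known best from endothelium (chromosome 2, 32646595 to 32682669, GRCm38). It was at 2776 and 2396 normalized counts in libraries labelled Prox1 KO and at 2166 and 1891 in the controls (mean 2586 ± 269 against 2028 ± 194, SD, n = 2), without overlap, and replicate 1 was the higher library in each group. The fold change was 0.35 ± 0.049 (log2, SE; limma adjusted p = 0.000267), with 0.36 and 0.34 in the 2 pairs. Acvrl1, the type I receptor that works with endoglin in endothelium, was at 2994 and 2637 against 2872 and 2295 and was not called (0.13, adjusted p = 0.119). The summed level of 6 endothelial markers was 949 to 1070 normalized counts in libraries labelled Prox1 KO and 647 to 752 in the controls. Most of it was Kdr, a VEGF receptor called higher (0.67, adjusted p = 4.75e-05), while Tek was at 106 to 174 normalized counts and was not called. Emcn was at 0 to 23.4 normalized counts, and Pecam1, Cdh5 and Tie1 were at no more than 12.5, 8.8 and 3.12 in any library. The part of endothelial cells in the Eng result was not tested.

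Bmpr2, the type II receptor for BMPs, was at 4768 and 4177 normalized counts in libraries labelled Prox1 KO and 3989 and 3542 in the controls, a fold change of 0.25 ± 0.043 (log2, SE; limma adjusted p = 0.00147). Tgfbr1, the type I receptor for TGF-beta, fell: 1477 and 1434 against 1761 and 1666, a fold change of -0.23 ± 0.055 (SE; adjusted p = 0.011). Neither overlapped between groups. Tgfbr2, the type II partner of Tgfbr1 and far more abundant (2668 against 242 normalized counts per kilobase), differed by 0.0098 with a 95% interval of -0.077 to 0.10 (adjusted p = 0.918), and the coreceptor Tgfbr3 by -0.054 (adjusted p = 0.482). The activin and BMP receptors Acvr1 (0.026), Acvr1b (-0.16), Acvr2a (-0.14), Acvr2b (0.25) and Bmpr1a (-0.077 on the log2 scale) had adjusted p-values between 0.141 and 0.812. Acvr2a was lower in the replicate 1 pair and higher in the replicate 2 pair (-0.36 and 0.074), and Acvr2b had only 36.2 to 47.9 normalized counts.

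Of 8 antagonists and modulators, 2 were called higher and 0 lower by limma, and edgeR and DESeq2 with the block also called none of them lower. In limma 3 of the 8, Grem1, Fstl3 and Nog, all higher, had an unadjusted p under 0.05 (37.5%, beside 23.7% of all genes tested). Grem1 encodes gremlin, a secreted BMP antagonist made by fibroblasts (chromosome 2, 113746164 to 113758646, GRCm38). It was at 6278 and 8038 normalized counts in libraries labelled Prox1 KO and 4828 and 6168 in the controls (mean 7158 ± 1245 against 5498 ± 947, SD, n = 2). Here replicate 2 was the higher library in each group, and the replicate 1 library labelled Prox1 KO lay only just above the replicate 2 control. The pairs nevertheless agreed closely (0.38 and 0.38), and the fold change was 0.38 ± 0.041 (log2, SE; adjusted p = 2.07e-05), a rise of 30.2%. Fstl3, a follistatin-like inhibitor of activins, was at 2101 and 1774 against 1671 and 1554, a fold change of 0.26 ± 0.056 (SE; adjusted p = 0.00624), without overlap.

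Fst, the follistatin gene, was at 6721 and 6735 normalized counts against 6679 and 6332 (0.049, adjusted p = 0.526), and Fstl1 at 55789 and 60263 against 62282 and 60089.6 (-0.077, adjusted p = 0.347). Nog, which encodes noggin, had the largest fold change of the uncalled members, 0.58 ± 0.26, from 72.7 and 38.1 against 45.9 and 26.6 normalized counts (adjusted p = 0.188). At these low counts the groups overlapped and the 95% interval ran from 0.025 to 1.13. Chrd, encoding chordin, and Bmper, a BMP-binding modulator, differed by -0.019 and -0.00047, and the pseudoreceptor gene Bambi was at 540.4 and 489 against 581 and 582 (-0.18, adjusted p = 0.216).

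Among the 8 Smads, 2 were called, both higher. Smad9, a receptor-regulated Smad of the BMP branch (chromosome 3, 54755582 to 54801257, GRCm38), was the least abundant Smad per kilobase (30.8) and had the largest rise of all called members. Its RNA was at 228 and 178 normalized counts in libraries labelled Prox1 KO and 140.5 and 116 in the controls (mean 203 ± 35.1 against 128 ± 17.3, SD, n = 2), without overlap. The fold change was 0.65 ± 0.15 (log2, SE; limma adjusted p = 0.00829), 0.69 and 0.61 in the pairs, and DESeq2 with the replicate block did not call it (adjusted p = 0.328). Smad7, an inhibitory Smad that TGF-beta itself induces, was at 1140.0 and 760.5 against 864 and 678. The Smad7 values overlapped between groups, and replicate 1 exceeded replicate 2 by 0.58 and 0.35 on the log2 scale (labelled Prox1 KO, then control), more than the fold change of 0.28 ± 0.075 (SE; adjusted p = 0.0233). DESeq2 with the block gave Smad7 an adjusted p of 0.416.

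The other inhibitory Smad, Smad6, was at 742 and 634 against 588 and 606 normalized counts (0.20, adjusted p = 0.156) and did not overlap, but the difference was mostly in the replicate 1 pair (0.34 and 0.067). The signal-carrying Smads other than Smad9 were not called. Fold changes were 0.035 for Smad2, -0.066 for Smad3, 0.042 for Smad4, 0.041 for Smad1 and 0.0014 for Smad5, with adjusted p-values between 0.377 and 0.991. Their 95% intervals lay within -0.16 and 0.19 on the log2 scale, so that for these 5 genes a change as large as that of Smad9 is outside the interval.

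**Figure D3:**
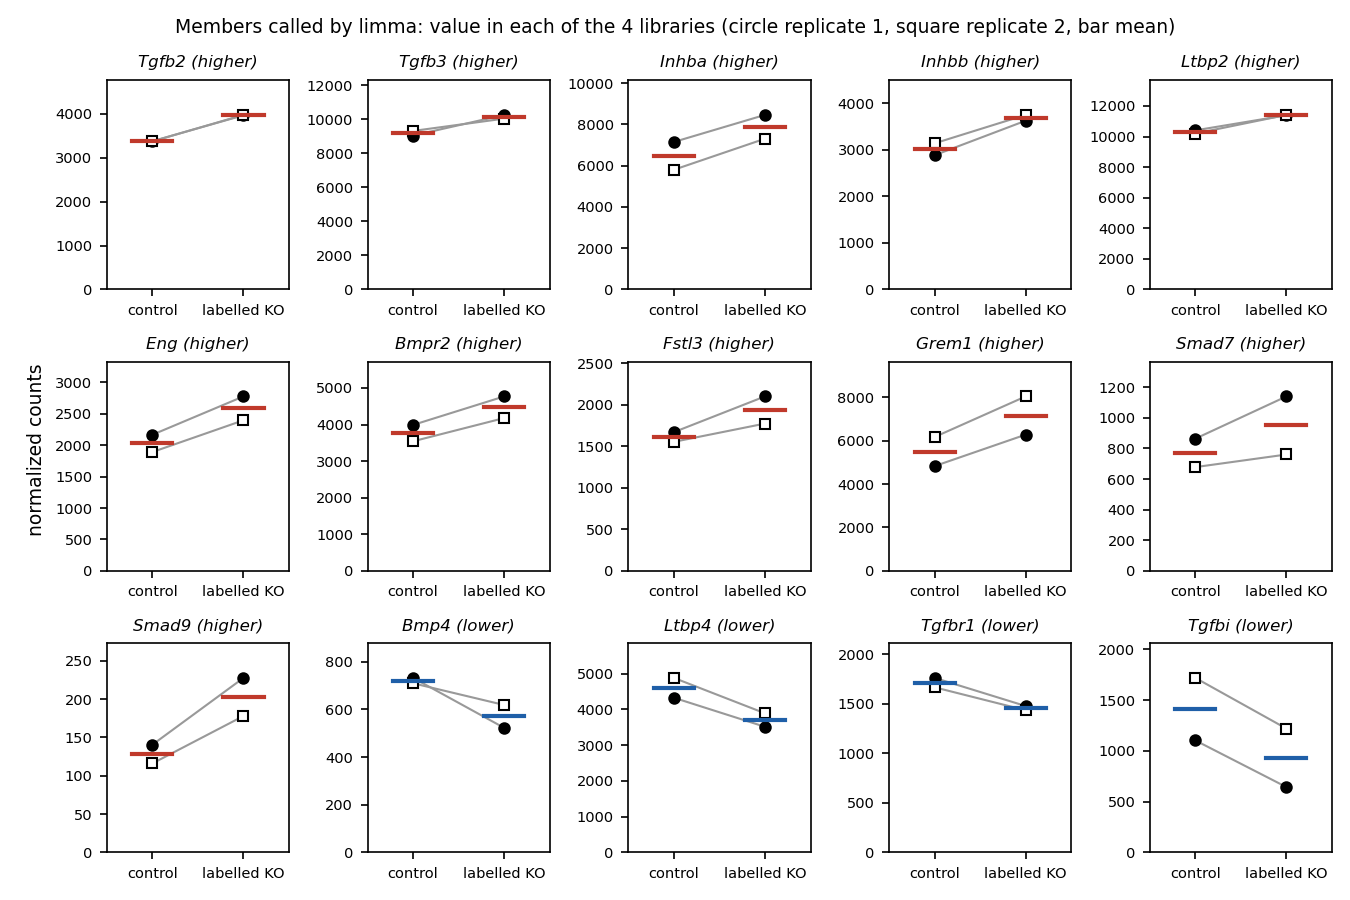
Each panel shows the normalized counts (vertical axis, from 0) of 1 called gene in the 2 control libraries and the 2 libraries labelled Prox1 KO. Circles are replicate 1, squares replicate 2, grey lines join the same replicate number and coloured bars are the means; the lines run in the same direction in every panel, and the values of the groups overlap for Smad7 and Tgfbi only.

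Of the 8 targets and nuclear regulators, 1 was called. Tgfbi, an extracellular matrix protein named for its induction by TGF-beta (chromosome 13, 56609523 to 56639562, GRCm38), was at 643 and 1219 normalized counts in libraries labelled Prox1 KO and 1103 and 1718 in the controls (mean 931 ± 407 against 1410.3 ± 435, SD, n = 2). The groups overlapped, with replicate 2 higher than replicate 1 in both, but within each pair the library labelled Prox1 KO was lower (-0.78 and -0.49). The fold change was -0.64 ± 0.072 (log2, SE; limma adjusted p = 3.46e-05; DESeq2 with the block 8.44e-05). The other targets were not called. Pmepa1, a TGF-beta-induced feedback inhibitor, was at 5315 and 4828 against 5124 and 5119 (-0.016, adjusted p = 0.876), and the nuclear repressors Skil and Tgif1 differed by 0.0056 and -0.038.

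The Id genes, whose products block basic helix-loop-helix factors and which BMP signalling switches on, separated by replicate number rather than by group. Id1 was at 3082 and 2141 normalized counts in replicates 1 and 2 labelled Prox1 KO and at 2974 and 1883 in the controls. Id3 was at 7591 and 5605 against 7475 and 5613, Id2 at 1368 and 991 against 1372 and 1034, and Id4 at 483 and 307 against 426 and 248. In all 4, both replicate 1 libraries were higher than both replicate 2 libraries. The fold changes between groups were 0.12 for Id1, -0.032 for Id2, 0.01 for Id3 and 0.24 for Id4 (adjusted p between 0.154 and 0.915), while replicate 1 exceeded replicate 2 by 0.41 to 0.78 on the log2 scale.

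Separation by replicate number was common among all genes. In 25 of the 52 members (48.1%, beside 36.4% of all genes tested) the replicate 1 libraries did not overlap the replicate 2 libraries, 16 of them higher in replicate 1 and 9 higher in replicate 2. In 27 (51.9%, beside 45.9% of all genes tested) the mean difference between replicate numbers was larger than the difference between groups. Among the called members, Smad7 and Tgfbi were of this kind. Noggin (Nog) and Bmp7 were higher in replicate 1, by 0.91 and 0.76 and by 1.08 and 0.59 on the log2 scale (labelled Prox1 KO and control), and Gdf5 was lower (-0.89 and -0.55), all at few counts. Whether a replicate number stands for a MEF line, a litter or a day is not given in the sources used here, so these sources of the difference cannot be told apart.

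**Figure D4:**
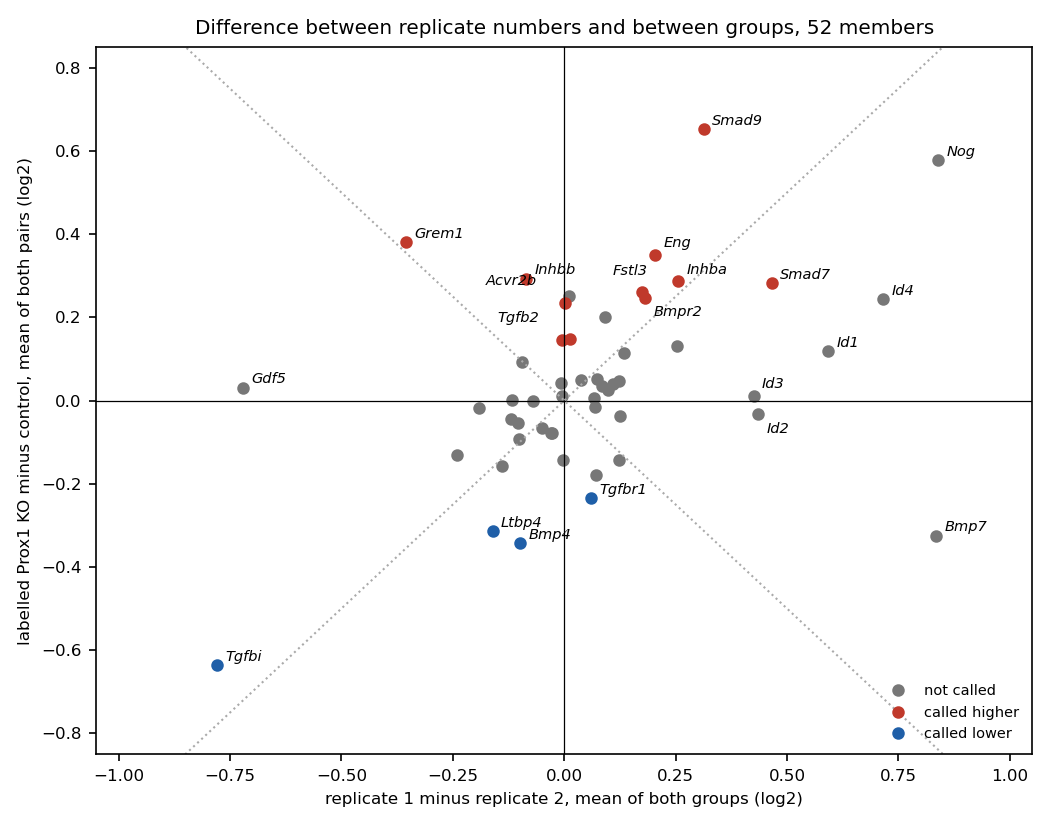
The horizontal axis is replicate 1 minus replicate 2 (log2, mean of both groups) and the vertical axis is libraries labelled Prox1 KO minus the controls (log2, mean of both pairs), with 1 point for each of the 52 genes and dotted lines where the sizes are equal. The 4 Id genes lie to the right, at a replicate difference of 0.43 to 0.72, whereas Smad9 and Eng lie higher on the vertical axis than to the side.

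Genes of the pathways that are not among the 52 were described from a further list of 84, of which 70 passed the filter and 14 did not. Of the 70, 21 were called (30.0%, beside 11.4% of all genes tested), 14 higher and 7 lower, and the median fold change of the 70 was 0.048. The list was written with earlier results of these data known, so its share is no separate support. Its median level was 2154 normalized counts, and 16.0% of all genes averaging 1000 or more were called. The called genes of the list with the largest changes included Bmp8a, Itgb6, Gdf15, Rgma, Atoh8, Msx2 and Gdf10. Bmp8a, a BMP ligand with the close paralog Bmp8b, was at 1109.9 and 928 normalized counts in libraries labelled Prox1 KO and 699.5 and 666 in the controls (0.57 ± 0.073, log2, SE; adjusted p = 0.000114), while Bmp8b was at 173 and 139.8 against 166 and 154. Reads shared between the paralogs could be assigned to either, so the 2 values are uncertain.

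Rgma, a BMP coreceptor, was at 1579 and 2158 normalized counts in those labelled Prox1 KO against 2165 and 3026 (-0.47, adjusted p = 1.84e-05). Itgb6, a subunit of an integrin that frees latent TGF-beta, was at 145 and 149.6 against 201 and 215 (-0.49, adjusted p = 0.0331). Neither of these genes overlapped between groups. The stress-induced ligand Gdf15 (0.49), the transcription factor Atoh8 (0.36) and the homeobox gene Msx2 (0.35) were called higher and the ligand Gdf10 (-0.35 on the log2 scale) lower, and their groups overlapped. Chosen after their values were seen, the TGF-beta target Ccn2 (0.23, adjusted p = 0.00254) was higher within both pairs, Junb was lower (-0.16, adjusted p = 0.0216), and Col1a1 and Fn1, matrix genes that TGF-beta induces, were not called (0.049 and 0.12, adjusted p = 0.634 and 0.271).

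Markers of the cell types that these cultures could hold moved with the groups as well. Fibroblast identity was plain, with Col1a1 at 251990 to 300038 normalized counts, and of 9 fibroblast markers 3 were lower (Lum at -0.91, Pdgfra at -0.48 and Dcn at -0.43) and 6 were not called. All 5 smooth muscle markers, of which Acta2, Tagln and Cnn1 are also in the further pathway list, were higher, by 0.25 for Tagln to 0.72 for Myh11, with a summed level of 86299 to 94025 against 73156 to 74821 normalized counts. Of 8 biliary and epithelial markers 6 were lower (Cldn6 at -2.16, Epcam at -1.58), and of 10 hepatocyte markers 6 were lower and 1, Ass1, was higher. Summed over each list, the epithelial markers ranged from 89172 to 115061 normalized counts in libraries labelled Prox1 KO and from 96200 to 138425 in the controls, and the hepatocyte markers from 36640 to 37390 and from 36489 to 38430. Spp1, which was not called, made up 86.7% to 92.2% of the epithelial sum, and Ass1 41.4% to 57.1% of the hepatocyte sum. Without Spp1 the other 7 epithelial markers summed to 8099.5 and 8962 normalized counts in libraries labelled Prox1 KO against 12756 and 17913 in the controls. Without Ass1 the other 9 hepatocyte markers summed to 16043 and 17407 against 21777 and 21373. The 5 macrophage and blood markers summed to 285 and 330 against 281 and 263, with Cd68 at 159 to 232, Csf1r at 71.7 to 104 and Adgre1 at 0 in all 4 libraries. The 4 adipocyte markers summed to 1823 to 2245 normalized counts in libraries labelled Prox1 KO and 1614 to 2172 in the controls, most of it Fabp4, with Pparg at 385 to 458 and Adipoq at no more than 7.34. The 4 neuronal markers summed to 1078 to 1143 and 974 to 1043, most of it Tubb3, with Snap25 at 42.0 to 57.5 and Rbfox3 at no more than 3.91. Of the macrophage, adipocyte and neuronal markers 6 passed the filter, and limma called none of them (3, Cd68, Fabp4 and Tubb3, had an unadjusted p under 0.05), and edgeR and DESeq2 with the block also called none. The part of these cell types in the changes of the TGF-beta and BMP genes was not tested.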

How the data were processed

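RNA of 4 cultures at day 14 was sequenced from dUTP libraries. After mapping to mm10 by STAR, the authors divided the read counts of each gene by DESeq2 size factors and deposited the resulting signal, here called normalized counts; the counting tool, its strand setting and the annotation release are not given in the sources used here. A second deposited table holds the authors' own fold changes and p-values and was not used. In each library 100% of positive values were whole multiples (within 0.02) of 1 step, which gave the reads and the size factors (0.939 to 1.09). Exons of 17 members overlap those of other genes in GENCODE vM21 (GRCm38), among the called ones Tgfb2, Tgfb3, Bmp4, Ltbp2, Eng and Fstl3 in antisense, and whether the counting kept such pairs apart is not known.

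Genes averaging 10 or more were fitted on log2(value + 1), which understates changes of low genes, with limma 3.58.1 (R 4.3.3; intensity trend, replicate number as a block, Benjamini-Hochberg threshold 0.05). The study's methods use the MEF line as a covariate; the labels give only a replicate number, and whether it stands for a line is not given in the sources used here. Same-numbered libraries deviated together (correlation across genes, which are not independent, of 0.402, and 0.331 on autosomes). Libraries of a group differed beyond sampling noise in 34.3% and 35.4% of genes (chi-square test), so none was a duplicate. Nothing states that the libraries are separate animals. With the replicate number as a block, p-values measure how far the difference between groups varies from pair to pair, a spread that may be technical. With 2 pairs, limma takes most of that spread from genes of similar level rather than from the gene itself. The SE was 0.072 for Tgfbi, whose pairs were -0.78 and -0.49, and 0.044 for Tgfb2, whose pairs were 0.24 and 0.23. Each tool was tested on simulated counts with known changes. Those changes were larger than that of any called member, so the test does not cover changes of the size reported here. Alternatives used edgeR 4.0.16 and DESeq2 1.42.0 on recovered reads.

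The members, the further pathway list, the marker lists and the motifs were chosen with earlier results of these data known. All members were named, called ones with every library's value, and the 8 called genes with the largest change from the further list, of which 1 is not reported here. Promoters are from RefSeq (GRCm38.p6).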

Additional observations from a re-analysis of the deposited data

How the results depend on the processing

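Of the 15 called members, all kept their direction in every alternative fit and in each replicate pair alone. In the alternative fits the same held for all 1798 genes called over all genes tested, wherever a fit gave a value. Every fit used the same 4 libraries, so the shared direction is no separate support for the members. Without the replicate block, limma called 0 genes of all tested (1783 at an unadjusted p under 0.05), 0 of the 52 members and 0 of the further pathway list. DESeq2 with the replicate block called 471 genes over all, 7 members and 11 of the further list, and DESeq2 with no replicate block 160, 0 and 3. The cause was not tested, but without the block the differences between replicate numbers enter the error. The number of members called was 15 with either other pseudocount (0.1 or 10), 15 with a mean of at least 50, 16 with no filter (Ltbp3 added), 13 with quantile normalization (Tgfb3 and Ltbp2 lost), 15 with edgeR and 16 with the correction for GC content and length with the replicate block (Ltbp1 and Ltbp3 added, Ltbp2 lost). The shares over all genes in these settings are not given here, so the member counts are not compared with all genes. Values near 0 changed sign for 5 uncalled members: Tgfbr2 (-0.023), Skil (-0.026) and Id2 (0.0033) under the correction for GC content and length, Id3 (-0.013) with quantile normalization, and Smad5 with quantile normalization (-0.0069), edgeR (-0.0011) and the correction (-0.014). The median fold change of the members was 0.018 to 0.030 over these fits and 0.021 and 0.041 in the replicate 2 and replicate 1 pairs alone. Leaving out a replicate leaves 1 pair and no residual degrees of freedom, so it gave values with no test. Means under 50 normalized counts (Bmp7, Gdf5, Acvr2b and Nog) limit what can be seen in those genes.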
